A study of Mus musculus with 8 samples.

Results

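The genes described here are 42 that build or maintain the contacts between epithelial cells: 6 of adherens junctions, 15 of tight junctions (11 membrane proteins and 4 plaque proteins), 10 of desmosomes, 6 regulators of epithelial splicing and transcription, and 5 of apical-basal polarity. They were taken by symbol from a list, with no cut on their values. The list was chosen with earlier results of these data known. All 42 were found among the 22180 genes with an array row that names 1 gene. Cdh1 and Dsg2 had several rows, and their brightest row was used. Total RNA of 8 intact mammary tumors was hybridized to Affymetrix arrays, 1 array per tumor, with log2 signals as values. The tested tumors (cKO, n = 4) came from MMTV-PyMT mice with floxed Mmp14 alleles, Mmp14(f/f), and an MMTV-Cre transgene. The comparison tumors (WT, n = 4) came from MMTV-PyMT littermates with Mmp14(f/f) and no Cre, labelled wild type. All mice were congenic FVB/NJ and 3 to 4 months old, and the tumors lay in inguinal and thoracic glands. Both transgenes use the mammary tumor virus promoter, which is active chiefly in mammary epithelium, so the PyMT oncogene and Cre act in the epithelial compartment, while the arrays measured whole tumors with their stroma. The groups differ in Cre as well as in Mmp14, and fewer cells of a type and less RNA per cell cannot be told apart in such samples.

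Epithelial cells are held together by adherens junctions, in which E-cadherin binds its like on the next cell and is tied to actin by catenins. Tight junctions seal the space between cells through claudins and occludin, and desmosomes link the keratin filaments of neighbours. The Par and Crumbs complexes set the apical side, Lgl proteins the basolateral side, and Esrp, Ovol and Grhl factors keep the epithelial program on. Mmp14, the targeted gene, encodes a membrane-bound collagenase, and E-cadherin is known as a substrate of several matrix metalloproteinases at the protein level, which arrays do not measure.

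Mmp14 fell in cKO tumors, with 7.98, 7.74, 7.44 and 7.72 in cKO 1 to 4, against 8.86, 9.12, 9.31 and 9.17 in WT 1 to 4. The Mmp14 difference in log2 signal, cKO minus WT, was −1.40 (SE 0.13, limma adjusted p 0.0444, exact two-sided permutation p 0.0286, the smallest that 4 against 4 allows). Arrays 1 to 4 alone gave −1.13 and arrays 5 to 8 alone −1.66. Of the 8 leave-one-out fits, 6 put its adjusted p above 0.05, those without cKO 2, cKO 4 or any WT tumor. The call also ended with arrays 1 to 4 and 5 to 8 as a block (limma adjusted p 0.0708), with replicate numbers as a block (0.353) and with a keratin (0.249) or fibroblast (0.108) covariate.

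The junction and polarity genes showed no such difference. None of the 42 passed limma's adjusted p of 0.05 over 23521 rows, where 0.0085% of rows passed, and their adjusted p ran from 0.487 to 0.996. At an unadjusted p below 0.05 there were 3 members lower in cKO (Ppl, Jup and Cdh3) and 0 higher. Over all genes 4.2% were lower, 5.7% higher and 9.9% either at that p, and over the genes with a mean log2 signal of at least 5 these shares were 6.66%, 8.16% and 14.8%. No member had groups that did not overlap. Over all genes 1.75% were lower without overlap, 3.76% higher and 5.52% either, and over the genes with a mean of at least 5 the shares were 2.6%, 4.98% and 7.58%. The differences of 36 members were smaller than 0.25 in size, and the share over all genes is not given here.

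The members leaned slightly down. The difference was below 0 in 29 of 42 members (69.0%), against 43.3% of all genes and 48.5% of genes with a mean of at least 5. Their median difference was −0.066, against 0.023 over all genes and 0.0078 over the genes with a mean of at least 5. Members share tumors and many share cells, so this count is a description and was given no test. It moved with single tumors: without WT 4 the count was 22 and the median −0.0078, and without cKO 1 they were 24 and −0.019. Without WT 2 they were 33 and −0.11, and without cKO 2 they were 32 and −0.11. With the mean of the luminal keratins Krt7, Krt8, Krt18 and Krt19 as a covariate, 18 of 42 were below 0 and the median was 0.0090.

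**Figure D1:**
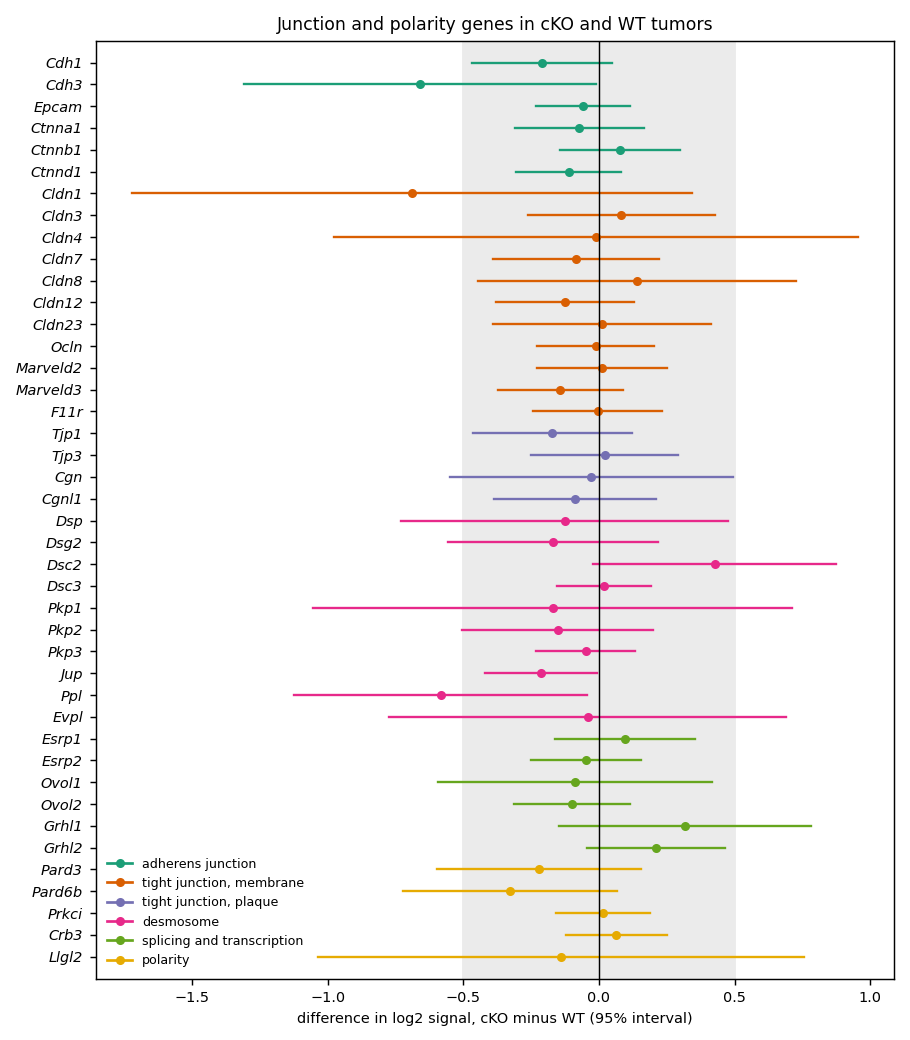
Difference in log2 signal (cKO minus WT, x axis) for each of the 42 genes (rows, coloured by role), with 95% intervals from limma over 4 cKO and 4 WT tumors; the grey band spans −0.5 to 0.5. In 25 genes the whole interval lies in the band, and the widest intervals are those of Cldn1 and Cldn4.

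How large a change these data leave room for is given by the 95% intervals of limma's fit, taken gene by gene without adjustment. In 25 of 42 members (59.5%) the whole interval lay between −0.5 and 0.5 on the log2 scale, against 61.1% of genes with a mean of at least 5 and 72.2% of all genes. In 37 members it lay between −1 and 1. The other 5 were Cdh3, Cldn1, Pkp1, Ppl and Llgl2. The narrowest interval was that of Epcam, 0.17 on either side, and the widest that of Cldn1, 1.03 on either side.

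Among the adherens junction genes, 5 of 6 were below 0, with a median of −0.091. Cdh1 encodes E-cadherin. Its signals were 10.30, 10.46, 10.49 and 10.45 in cKO 1 to 4, against 10.78, 10.39, 10.52 and 10.85 in WT 1 to 4. WT 1, WT 3 and WT 4 were above all cKO tumors, WT 3 by little, and WT 2 was within the cKO range. The difference was −0.21 (SE 0.11, 95% interval −0.47 to 0.050, limma adjusted p 0.600). It was −0.21 within each set of arrays, −0.14 without WT 4 and −0.29 without WT 2. In the fit without WT 2 the unadjusted limma p of Cdh1 was below 0.05 and the groups did not overlap. A second, dimmer Cdh1 row gave −0.32 (SE 0.10, unadjusted p 0.0130, adjusted p 0.384). The mean over the Cdh1 rows gave −0.27, at an unadjusted limma p below 0.05 (adjusted p 0.456).

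Cdh3, the P-cadherin gene, lies next to Cdh1 in the genome and is known in the mammary gland as a myoepithelial cadherin. It had 5.63, 4.71, 4.56 and 5.01 in cKO tumors, against 5.69, 5.64, 4.996 and 6.21 in WT tumors. The groups overlapped through cKO 1, which was close to WT 1 and WT 2, and through WT 3. Its difference of −0.66 (SE 0.29, limma adjusted p 0.509) was the second largest in size among the members, after Cldn1. Of the 6 measured basal and myoepithelial markers, 4 were below 0 and 2 above, with a median of −0.17. The mean log2 signal of these markers was 5.05 to 5.94 in cKO tumors and 5.43 to 5.999 in WT tumors, and their part in the Cdh3 values was not tested.

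Epcam, a surface adhesion protein of nearly all simple epithelia, was among the steadiest members. It had 10.54, 10.60, 10.48 and 10.45 in cKO tumors, against 10.51, 10.64, 10.52 and 10.64 in WT tumors. All 8 values lay within 0.19, and the difference was −0.060 (95% interval −0.23 to 0.11, limma adjusted p 0.840). Ctnnb1 encodes beta-catenin, which binds the cadherin tail and also carries the Wnt signal. Its signals were 9.92, 10.05, 9.96 and 10.04 in cKO tumors, against 9.97, 10.11, 9.71 and 9.86 in WT tumors. They mixed fully, with a difference of 0.078 (95% interval −0.14 to 0.30). The alpha-catenin gene Ctnna1, the link to actin, and the p120-catenin gene Ctnnd1, which keeps cadherin at the membrane, differed by −0.072 and −0.11.

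**Figure D2:**
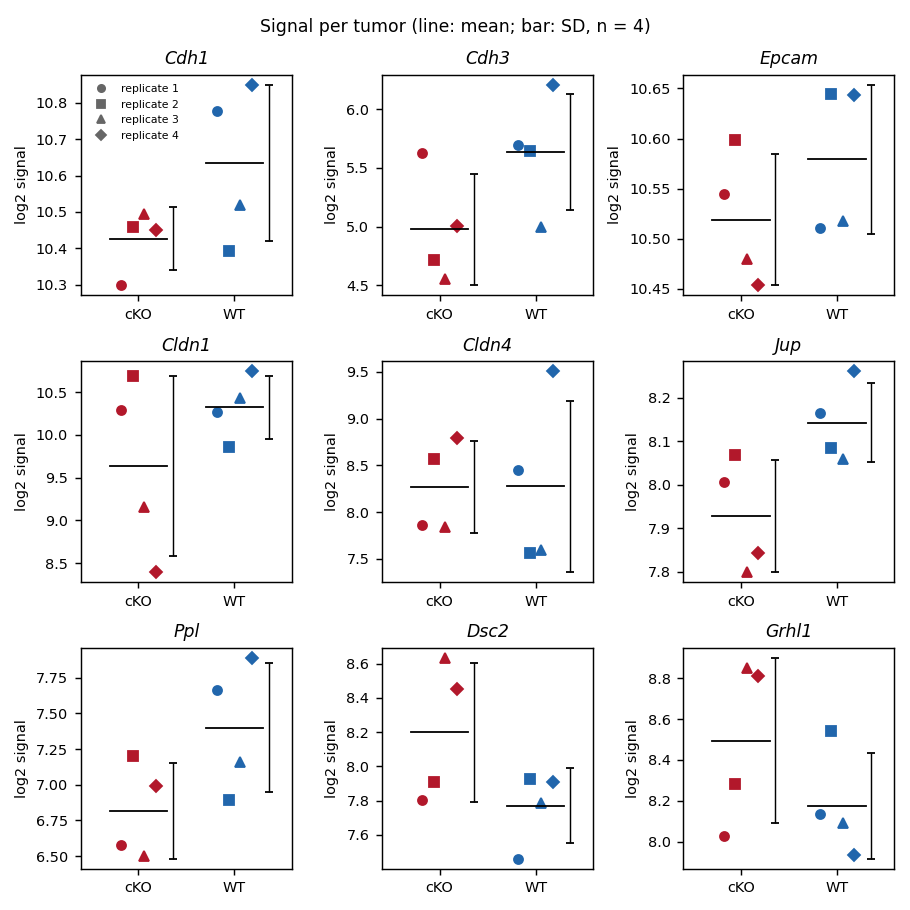
Log2 signal (y axis) of 9 genes in each cKO (red, left) and WT (blue, right) tumor; symbols mark the replicate number, lines the mean and bars the SD (n = 4 each). The groups overlap in every panel, and the scale differs between panels: Epcam spans 0.19 and Cldn1 2.34 over the 8 tumors.

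The tight junction membrane genes had a median difference of −0.011, with 7 of 11 below 0. Cldn1, a barrier-forming claudin, differed most in size of all 42 members and also varied most. It had 10.29, 10.69, 9.16 and 8.40 in cKO tumors, against 10.27, 9.86, 10.44 and 10.74 in WT tumors. Replicates cKO 3 and cKO 4 were below all WT tumors, while cKO 1 and cKO 2 were at WT levels. The difference was −0.69 (SE 0.46, 95% interval −1.72 to 0.34, limma adjusted p 0.667). Arrays 1 to 4 alone gave 0.43 and arrays 5 to 8 alone −1.81, and it was −0.28 without cKO 4 and −1.04 without cKO 2.

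Cldn3 and Cldn4 are neighbours in the genome and encode claudins of simple epithelia. Cldn3 had 10.65, 10.85, 10.55 and 10.29 in cKO tumors, against 10.34, 10.35, 10.43 and 10.87 in WT tumors. Cldn4 had 7.86, 8.57, 7.84 and 8.80 in cKO tumors, against 8.45, 7.56, 7.59 and 9.50 in WT tumors. Both were highest in WT 4, and the differences were 0.083 (95% interval −0.26 to 0.43) and −0.011 (95% interval −0.98 to 0.96). The Cldn4 interval is wide because single tumors ran from 7.56 to 9.50, and these data do not tell apart the differences within it. Without WT 4 the Cldn4 difference was 0.40, and without WT 2 it was −0.25.

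Cldn7, whose protein binds Epcam, had 7.54, 7.96, 7.55 and 7.29 in cKO tumors, against 7.74, 7.65, 7.54 and 7.75 in WT tumors. The highest and the lowest value were both in cKO, and the difference was −0.084 (95% interval −0.39 to 0.22). Ocln encodes occludin, a strand protein of tight junctions. It had 8.49, 8.63, 8.43 and 8.38 in cKO tumors, against 8.52, 8.33, 8.48 and 8.65 in WT tumors, a difference of −0.012 (95% interval −0.23 to 0.20). Marveld2, the tricellulin gene next to Ocln, differed by 0.013, and Marveld3, of the same family, by −0.14. The Marveld3 signals were 8.46, 8.56, 8.26 and 8.34 in cKO tumors, against 8.52, 8.49, 8.75 and 8.44 in WT tumors, and cKO 2 was above 3 of the 4 WT tumors. Without WT 3 the Marveld3 difference was −0.075. Of the remaining members, F11r (junctional adhesion molecule A) differed by −0.0049, Cldn8 by 0.14, Cldn12 by −0.12 and Cldn23 by 0.011.

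The plaque genes connect these membrane proteins to actin. Tjp1, the scaffold ZO-1, had 9.02, 9.31, 9.20 and 9.27 in cKO tumors, against 9.64, 9.15, 9.18 and 9.52 in WT tumors. WT 1 and WT 4 stood above all cKO tumors and WT 2 and WT 3 did not, and the difference was −0.17 (95% interval −0.47 to 0.12). It was −0.084 without WT 1 and −0.25 without WT 2. Tjp3 (ZO-3) differed by 0.021, the cingulin gene Cgn by −0.028 and its paralog Cgnl1 by −0.088.

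Desmosome genes had 8 of 10 below 0 and a median of −0.14. Ppl, the periplakin gene, encodes a plakin of desmosomes and of the envelope of stratified epithelia, and had the smallest p of the 42. Its signals were 6.58, 7.20, 6.50 and 6.99 in cKO tumors, against 7.66, 6.90, 7.16 and 7.89 in WT tumors. WT 1 and WT 4 were above all cKO tumors, and WT 2 and WT 3 were within the cKO range. The difference was −0.58 (SE 0.24, limma adjusted p 0.487), with −0.39 in arrays 1 to 4 alone and −0.78 in arrays 5 to 8 alone. Its relative Evpl (envoplakin) differed by −0.042 with a residual SD of 0.55.

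Jup encodes plakoglobin, which serves desmosomes and adherens junctions alike. It had 8.01, 8.07, 7.80 and 7.84 in cKO tumors, against 8.17, 8.08, 8.06 and 8.26 in WT tumors. The groups overlapped only in that cKO 2 was just above WT 3, and the difference was −0.21 (SE 0.091, limma adjusted p 0.4997). After a shift of all arrays to 1 median the groups no longer overlapped, and the adjusted p stayed above 0.05 as well.

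Dsc2 (desmocollin 2), a desmosomal cadherin, differed most in the upward direction. It had 7.80, 7.91, 8.63 and 8.45 in cKO tumors, against 7.46, 7.93, 7.79 and 7.91 in WT tumors. Replicates cKO 3 and cKO 4 were above all WT tumors and the other two were within the WT range. Its difference was 0.43 (SE 0.20, 95% interval −0.021 to 0.88, limma adjusted p 0.541). It was 0.28 without cKO 3 and 0.56 without cKO 1. The cadherin Dsg2 (desmoglein 2) differed by −0.17 in its brightest row. A second, dimmer Dsg2 row, with a mean of 4.24, went the other way at 0.14 (SE 0.12, limma adjusted p 0.741). Without cKO 3 the Dsg2 difference was −0.35, at an unadjusted limma p below 0.05 and with no overlap, and without cKO 1 it was −0.066. Dsc3, next to Dsc2 in the genome, stayed between 3.04 and 3.25 in all 8 tumors, below the median signal of every array.

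Dsp encodes desmoplakin, the anchor of keratin filaments. It had 8.59, 9.42, 9.95 and 9.85 in cKO tumors, against 9.60, 9.43, 9.54 and 9.76 in WT tumors. The cKO values lay on either side of the WT values, lowest in cKO 1 and highest in cKO 3, and the difference was −0.13 (95% interval −0.73 to 0.48). Without cKO 1 it was 0.16, and without cKO 3 it was −0.29. The plakophilins, which bridge desmosomal cadherins and desmoplakin, differed by −0.17 (Pkp1), −0.15 (Pkp2) and −0.049 (Pkp3). Pkp1 ranged over 1.91 and Pkp3 over 0.22 across the 8 tumors. Skin keratinocyte markers, which would accompany stratified epithelium, had mean log2 signals of 3.15 to 3.23 in cKO tumors and 3.09 to 3.70 in WT tumors. The highest single value among their 9 genes was 4.65, for Dsg1a in WT 1.

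The regulators had 3 of 6 members below 0 and a median of 0.024. Grhl2, a grainyhead-like factor that activates Cdh1 and claudin genes, had 7.88, 8.10, 8.30 and 7.91 in cKO tumors, against 7.91, 7.79, 7.69 and 7.95 in WT tumors. cKO 2 and cKO 3 were above all WT tumors, and the difference was 0.21 (95% interval −0.043 to 0.47, limma adjusted p 0.594). It was 0.13 without cKO 3 and 0.27 without cKO 1. Its paralog Grhl1 had 8.03, 8.28, 8.85 and 8.81 in cKO tumors, against 8.13, 8.54, 8.09 and 7.94 in WT tumors. As with Dsc2, cKO 3 and cKO 4 were the highest, and the difference of 0.32 (SE 0.21, limma adjusted p 0.661) came to −0.18 in arrays 1 to 4 alone and 0.82 in arrays 5 to 8 alone. It was 0.20 without cKO 3 and 0.47 without cKO 1.

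Esrp1, which directs the epithelial pattern of splicing, had 9.44, 9.51, 9.92 and 9.59 in cKO tumors, against 9.51, 9.51, 9.43 and 9.63 in WT tumors. Only cKO 3 stood out, and the difference was 0.096 (95% interval −0.16 to 0.35). Esrp2 differed by −0.048. Ovol2, a zinc finger repressor of mesenchymal genes, had 4.65, 4.71, 4.72 and 4.60 in cKO tumors, against 4.92, 4.64, 4.89 and 4.62 in WT tumors, a difference of −0.099 (95% interval −0.31 to 0.11). Ovol1 and Ovol2 had means below 5.

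Among the polarity genes, 3 of 5 were below 0, with a median of −0.14. Pard6b encodes a Par6 subunit of the Par complex. It had 5.82, 6.39, 6.25 and 6.07 in cKO tumors, against 6.65, 6.11, 6.30 and 6.79 in WT tumors. WT 1 and WT 4 were again above all cKO tumors, and the difference was −0.33 (SE 0.17, 95% interval −0.72 to 0.067, limma adjusted p 0.594). It was −0.22 without WT 4, and −0.44 without WT 2 at an unadjusted limma p below 0.05. Pard3, the Par scaffold, had 7.69, 7.53, 8.08 and 7.96 in cKO tumors, against 8.11, 7.67, 8.02 and 8.35 in WT tumors. Here too WT 1 and WT 4 were above all cKO tumors, WT 1 by little, and WT 2 and WT 3 were within the cKO range. The difference was −0.22 (95% interval −0.60 to 0.15). It was −0.12 without WT 4 and −0.35 without WT 2. The kinase of this complex, Prkci (atypical protein kinase C iota), differed by 0.015 (95% interval −0.16 to 0.19).

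Crb3, the epithelial Crumbs protein, had 6.56, 6.71, 6.50 and 6.50 in cKO tumors, against 6.46, 6.59, 6.43 and 6.55 in WT tumors. These values mixed within a range of 0.28, and the difference was 0.063 (95% interval −0.12 to 0.25). Llgl2, the basolateral Lgl protein, differed by −0.14 with a 95% interval of −1.04 to 0.76, as cKO 2 had 8.59 and cKO 4 had 6.42.

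**Figure D3:**
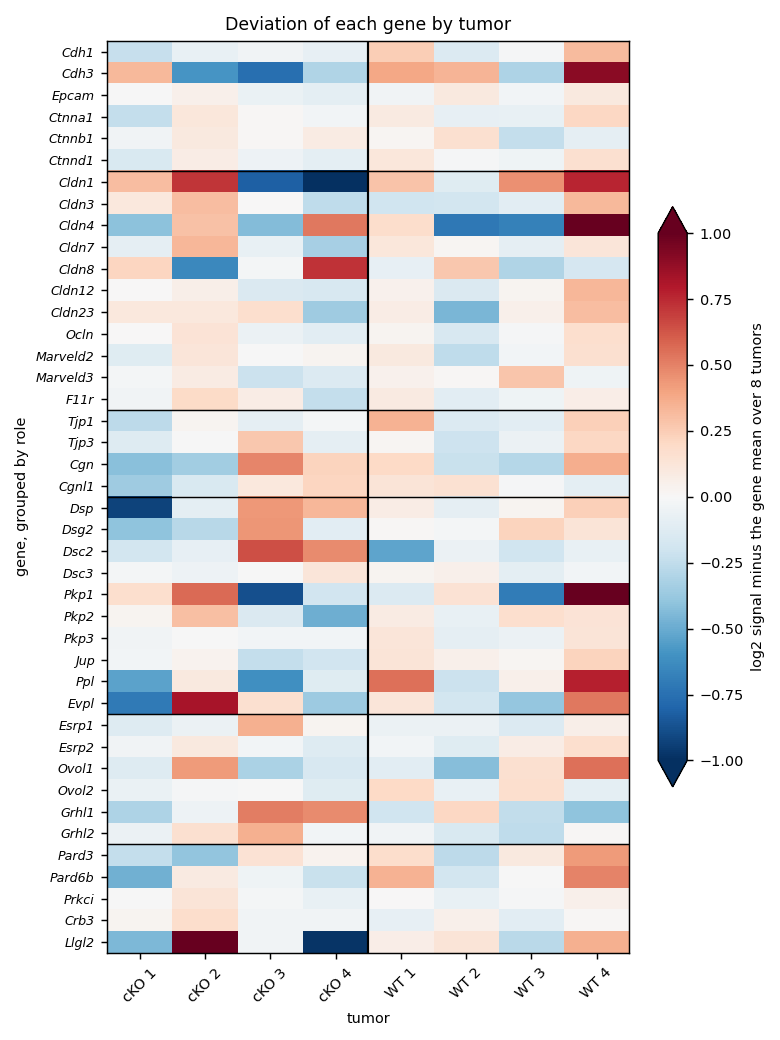
Log2 signal of each of the 42 genes (rows, grouped by role) in each tumor (columns, cKO left and WT right), minus the gene's mean over the 8 tumors; colours end at −1 and 1. The column of WT 4 is mostly red, and cKO 1 and cKO 4 hold many of the lowest values.

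Variation between tumors of a group differed widely among the members. The residual SD within groups had a median of 0.198 over the 42 members, against 0.186 over the genes with a mean of at least 5. It was below 0.15 in 15 members, among them Epcam, Prkci, Pkp3 and Crb3. It was above 0.3 in 13 members, with Cldn1 (0.79), Cldn4 (0.74), Llgl2 (0.68) and Pkp1 (0.67) at the top. WT 4 held the highest value of 19 members, cKO 3 that of 8, cKO 2 that of 7 and cKO 4 that of 3, while cKO 1 was highest in 0. The lowest value was in cKO 4 for 11 members and in cKO 1 for 10. The same counts over all genes are not given here, so these are not shown to be particular to the members. In 13 members, among them Cldn1, Cldn3, Cldn7, Ocln, Pkp1, Evpl and Llgl2, WT 4 and cKO 2 were the 2 highest tumors, against 4.67% of all genes and 6.4% of genes with a mean of at least 5. This pair of tumors was singled out after its values were seen, so the count is a description.

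Of the 4 luminal keratins, Krt7, Krt8 and Krt18 were highest in the same 2 tumors and Krt19 was not. Krt8, a keratin of luminal cells, had 10.11, 10.66, 10.06 and 10.10 in cKO tumors, against 10.45, 10.27, 10.07 and 10.74 in WT tumors. Krt19 had 7.85, 7.96, 6.21 and 6.83 in cKO tumors, against 8.71, 8.13, 7.65 and 8.96 in WT tumors, so that 3 WT tumors were above cKO 2. Relative to their mean over the 8 tumors, the 4 keratins together stood at 0.29 in cKO 2, against 0.68 in WT 4 and 0.35 in WT 1. All 4 were below 0 as a difference (−0.15 for Krt8, −0.25 for Krt18, −0.038 for Krt7 and −1.15 for Krt19), none with an adjusted p under 0.05. Their mean log2 signal was 8.33 to 9.20 in cKO tumors and 8.69 to 9.59 in WT tumors. The same 2 tumors were also highest for the basal keratins Krt14 (7.79 in cKO 2, 7.49 in WT 4) and Krt17 (5.47 and 4.81). They were not the 2 highest for the other basal and myoepithelial markers measured, Trp63, Acta2, Mylk and Oxtr.

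Markers of stromal cells were counted beside these genes. All 10 fibroblast markers were below 0, with a median of −0.98. Their mean log2 signals were 5.50 to 7.59 in cKO tumors and 7.22 to 7.77 in WT tumors. The fibroblast markers together stood at −1.62 in cKO 3 and −0.65 in cKO 2, relative to their mean over the 8 tumors. They stood at 0.087 in cKO 1 and 0.47 in cKO 4, and at 0.10 to 0.65 in WT tumors. All 8 endothelial markers were below 0, with a median of −0.26 and mean log2 signals of 5.28 to 6.11 in cKO tumors and 5.67 to 6.11 in WT tumors. Of 9 macrophage markers 8 were above 0, with a median of 0.40. None of these passed either (smallest limma adjusted p 0.315, 0.266 and 0.200). Relative to their mean over the 8 tumors, the 5 skeletal muscle markers stood at 0.44 in cKO 2, against 1.57 in WT 2 and 0.57 in WT 4, and below 0 in the other tumors. The part of endothelial, macrophage and muscle RNA in the members' values was not tested. With the fibroblast level as a covariate the members' median was −0.14, 34 of 42 were below 0 and none passed. Dsg2 and Pard6b were then lower at an unadjusted limma p below 0.05, and the smallest adjusted p was that of Pard6b, 0.443.

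**Figure D4:**
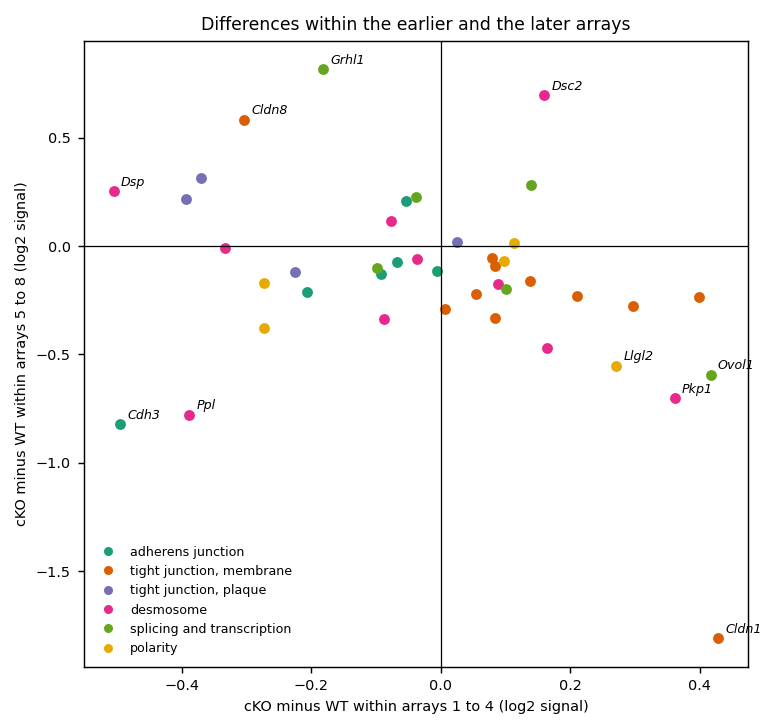
Each point is 1 of the 42 genes (coloured by role): cKO minus WT within arrays 1 to 4 (x axis) against the same within arrays 5 to 8 (y axis), in log2 signal, with 2 tumors per group in each. Points in the upper left and lower right have opposite signs in the 2 sets, and Cldn1 lies farthest down at −1.81.

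The labels number the arrays from 1 to 8, with 2 cKO and 2 WT tumors among the first 4 and among the last 4, and do not say what the number stands for. Within arrays 1 to 4 the members' median difference was 0.00038 with 21 of 42 below 0, and within arrays 5 to 8 it was −0.12 with 30 below 0. The sign differed between the sets in 25 members (59.5%), against 47.0% of all genes and 45.5% of genes with a mean of at least 5. Differences above 0.5 in size occurred in 9 members in the later set and in 1 member in the earlier, and the shares over all genes are not given here. Among the cKO tumors, cKO 1 and cKO 2 did not overlap with cKO 3 and cKO 4 in 21 of 42 members (against 40.5% of all genes and 45.9% of genes with a mean of at least 5). Of these, 9 were higher in cKO 3 and cKO 4 (such as Dsc2, Dsp, Cgn and Grhl1), and 12 were lower (such as Cldn1, Cldn3, Jup and Crb3). Among the WT tumors the same held for 11 members (26.2%, against 34.0% and 33.3%). With the sets as a block, none of the 42 passed, and the smallest adjusted p was that of Dsc2, 0.441.

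The other genes of these structures were counted from lists that hold further tight junction, adherens junction, desmosome, polarity and regulator genes. Of 80 such genes 75 were measured, 48 below 0 and 27 above, with a median of −0.061, and 0 passed limma's adjusted p. At an unadjusted p below 0.05 there were 6 lower and 4 higher, against 4.2% and 5.7% of all genes. No overlap between groups was seen in 3 lower and 3 higher, against 1.75% and 3.76%. A mean of at least 5 was reached by 58 of the 75. Over the genes with such a mean, 6.66% were lower and 8.16% higher at that p, and 2.6% and 4.98% without overlap. The 2 genes with the smallest p are given for each list. Nectin3, an adhesion molecule of adherens junctions, had 5.53, 5.48, 5.96 and 6.13 in cKO tumors, against 5.18, 5.32, 5.04 and 5.10 in WT tumors. The difference of 0.61 (SE 0.15, limma adjusted p 0.255) was seen in 4 of 4 cKO tumors. Shroom3, which constricts the apical side of epithelial cells, was lower by −0.27 (adjusted p 0.410), also without overlap.

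Among the polarity genes Crb1, a Crumbs protein best known from the retina, had 4.55, 4.06, 5.18 and 4.60 in cKO tumors, against 3.70, 3.68, 3.60 and 3.68 in WT tumors. All 4 cKO tumors were above all WT tumors, and the difference of 0.94 (SE 0.20, limma adjusted p 0.196) did not pass. The WT signals lay close to the array medians, between 3.64 and 3.71. Dlg3, a membrane scaffold, differed by −0.16. In the desmosome list Kazn (kazrin), which binds periplakin, differed by −0.56 (SE 0.16, adjusted p 0.327) with no overlap. Dsg1c differed by 0.58 at means of 2.90 in cKO tumors and 2.33 in WT tumors, both below the array medians.

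Grhl3, the third grainyhead-like factor, had 5.63, 4.88, 4.68 and 5.04 in cKO tumors, against 5.76, 5.21, 6.16 and 6.57 in WT tumors. It was at −0.86 (SE 0.30, limma adjusted p 0.416), where the members Grhl1 and Grhl2 were above 0, and cKO 1 was above WT 2. Elf5, a luminal progenitor factor, differed by −0.24, Arhgef18, an activator of RhoA at tight junctions, by −0.24, and the dim claudin Cldn6 by −0.23.

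Repressors of junction genes and mesenchymal genes were set beside the members. Of 9 measured, 8 were below 0 and 0 passed. Snai2 (Slug), a zinc finger repressor of Cdh1, had 7.43, 5.98, 6.02 and 6.65 in cKO tumors, against 7.06, 7.03, 7.58 and 7.88 in WT tumors. Its difference was −0.87 (SE 0.33, limma adjusted p 0.462), and cKO 1 overlapped with the WT tumors. Arrays 1 to 4 alone gave −0.34 for Snai2 and arrays 5 to 8 alone −1.39. Cdh11, a cadherin of mesenchymal cells, differed by −0.91 (adjusted p 0.430), and Zeb1, with means of 3.96 in cKO tumors and 4.14 in WT tumors, by −0.18.

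Snail and Zeb proteins are known to bind the E-box CAGGTG, so the 250 bases before each start in the RefSeq promoter table (mouse GRCm38.p6) were searched for it on both strands. A promoter was listed for 23 of the 42 members, and 9 of these 23 held the E-box in at least 1 of their windows (Cldn4, Cldn7, Crb3, Epcam, F11r, Ocln, Pard3, Pard6b and Tjp3), against 19.4% of 27025 genes. By window, 11 of 34 held it, against 17.2% of 32851. The grainyhead motif AACCGGTT was in 0 of the 23, against 0.137% of genes, and the Ovol motif CCGTTA was in 1 (Crb3, directly before an E-box without overlap), against 2.52% of genes. A match is a stretch of letters and not a measured site. The windows of Epcam (chr17:87635729-87635978, plus strand), Crb3 (chr17:57061951-57062200, plus strand) and Cldn4 (chr5:134946935-134947184, minus strand) are shown 5′ to 3′, since they pair 2 of the steadiest members with 1 of the most variable. Capitals mark the E-box on either strand.
Epcam: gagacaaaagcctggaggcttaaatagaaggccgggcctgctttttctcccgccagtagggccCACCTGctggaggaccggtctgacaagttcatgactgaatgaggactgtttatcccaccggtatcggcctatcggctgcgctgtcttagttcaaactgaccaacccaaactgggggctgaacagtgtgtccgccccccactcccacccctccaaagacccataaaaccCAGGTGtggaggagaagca
Crb3: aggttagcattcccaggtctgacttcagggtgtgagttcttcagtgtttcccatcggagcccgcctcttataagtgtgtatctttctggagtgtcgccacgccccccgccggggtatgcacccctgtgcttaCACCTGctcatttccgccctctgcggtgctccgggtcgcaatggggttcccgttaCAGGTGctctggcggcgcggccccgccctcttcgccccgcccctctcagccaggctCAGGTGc
Cldn4: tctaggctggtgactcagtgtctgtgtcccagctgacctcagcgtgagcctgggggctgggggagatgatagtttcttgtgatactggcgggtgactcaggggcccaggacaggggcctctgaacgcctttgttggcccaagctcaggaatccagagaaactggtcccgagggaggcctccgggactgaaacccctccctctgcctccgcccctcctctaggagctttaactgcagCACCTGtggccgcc
The E-boxes of Epcam begin 187 and 19 bases before the start, those of Crb3 118, 63 and 7 bases before it, and that of Cldn4 14 bases before it. Over the 8 tumors Snai2 ran from 5.98 to 7.88, Epcam from 10.45 to 10.64 and Crb3 from 6.43 to 6.71. Cldn4 was highest in WT 4, the tumor with the highest Snai2 signal, and next highest in cKO 4, where Snai2 was 6.65. WT 4 held the highest value of 19 of the 42 members. WT 3 had the next highest Snai2 signal (7.58), and its Cldn4 signal of 7.59 was close to the lowest, 7.56 in WT 2. No relation between these genes was tested, and whole tumors do not show which cells gave the Snai2 signal.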

How the data were processed

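The authors deposited a log2 signal for each row of each array. The submitters' processing notes name RMA and limma without a version. Of 41345 rows, 23521 name 1 gene and stand for 22180 genes. Symbols came from the platform annotation, updated by gene identifier through RefSeq GRCm38.p6, which served otherwise only for neighbours and promoters. Array medians lay between 3.64 and 3.71, and arrays correlated with r of 0.976 to 0.989 across rows.

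A model was fitted to all 23521 rows (limma 3.58.1, R 4.3.3, moderated by eBayes, cKO minus WT, two-sided, no covariate, Benjamini-Hochberg over all rows), after a run on simulated data with known changes. The number of arrays limits the precision. Values in every tumor are given for the 12 members with the smallest p and for preset landmark genes, 22 in all. Of each further list the 2 genes with the smallest p are named, 4 of them with values in every tumor, chosen after their values were seen. The members and lists were chosen with earlier results of these data known. Alternatives were 2 rescalings, a filter on dim rows, another variance prior, 2 blocks, the mean over a gene's rows, all rows, 2 covariates and each tumor left out.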

Additional observations from a re-analysis of the deposited data

Results flagged for a closer look

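In 3 of 110 groups of 4 tumors checked (55 genes), 1 tumor lay so far from the others that its gap exceeded Dixon's 95% critical share of the group's range, where chance gives about 1 in 20. Cldn3 had 10.87 in WT 4, against 10.34 to 10.43 in the other WT tumors. Cldn23 had 5.11 in cKO 4, against 5.57 to 5.64 in the other cKO tumors. Dsg1c had 3.59 in cKO 4, against 2.62 to 2.72 in the other cKO tumors, at signals below the array medians.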

How the results depend on the processing

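None of the 42 genes passed limma's adjusted p of 0.05 under any alternative or with any tumor left out, and the smallest was 0.262 (Ppl without WT 2). Deviations of same-numbered tumors from their group means correlated at −0.021, −0.20, 0.29 and −0.24, with no common sign. These values depend on each other, so they cannot show whether replicate numbers pair the tumors. With the replicate block, 0 rows in all passed in place of 2, the Mmp14 difference stayed at −1.40 (adjusted p 0.353), and 1 gene (Dsc2) was higher at an unadjusted p below 0.05. With the array sets as a block 1 row passed, Mmp14 was −1.40 (adjusted p 0.0708) and again 1 gene (Dsc2) was higher. With all rows tested 8 passed. With the keratin covariate 0 rows passed, Mmp14 was −1.37 (adjusted p 0.249), 0 genes were lower at an unadjusted p below 0.05 in place of 3, and 18 lay below 0 in place of 29. Among all rows, 1804 in place of 2277 had such a p with that covariate. With the fibroblast covariate 0 rows passed and Mmp14 was −1.26 (adjusted p 0.108). Without dim rows 1 gene was lower at an unadjusted p below 0.05, and Dsc3, Ovol1 and Ovol2 gave no value. After the median shift 1 gene (Jup) was lower without overlap. The causes were not tested.

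With 1 tumor left out, 0 to 3 rows passed, Mmp14 ran from −1.48 to −1.30, 0 to 4 genes were lower and 0 to 2 higher at an unadjusted p below 0.05, 0 to 2 were lower without overlap, 22 to 33 lay below 0, and the median ran from −0.11 to −0.0078. The sign of a gene's difference turned in 26 of 417 values over the other alternatives and 41 of 336 with a tumor left out. The keratin covariate gave Ctnna1 0.0094, Cldn4 0.50, Cldn7 0.073, Cldn8 −0.064, Cldn12 0.0079, Ocln 0.091, F11r 0.080, Pkp1 0.43, Pkp3 0.0086, Evpl 0.30, Esrp2 0.018, Ovol1 0.18 and Llgl2 0.30. The fibroblast covariate gave Cldn3 −0.048, Cldn4 0.033, Cldn23 −0.21, Marveld2 −0.037, Tjp3 −0.16, Esrp1 −0.061 and Prkci −0.019. Quantile normalization gave Cldn4 0.0058, Ocln 0.0084 and F11r 0.019, and the median shift Cldn4 0.0025, Ocln 0.0012 and F11r 0.0085. With 1 tumor left out the ranges that crossed 0 were −0.0058 to 0.21 for Cldn3, −0.25 to 0.40 for Cldn4, −0.21 to 0.014 for Cldn7, −0.079 to 0.38 for Cldn8, −0.14 to 0.13 for Cldn23, −0.069 to 0.041 for Ocln and −0.069 to 0.068 for Marveld2. They were −0.068 to 0.074 for F11r, −0.064 to 0.093 for Tjp3, −0.19 to 0.11 for Cgn, −0.18 to 0.015 for Cgnl1, −0.29 to 0.16 for Dsp, −0.016 to 0.041 for Dsc3 and −0.43 to 0.15 for Pkp1. They were −0.32 to 0.19 for Evpl, −0.0073 to 0.15 for Esrp1, −0.25 to 0.081 for Ovol1, −0.026 to 0.042 for Prkci and −0.56 to 0.16 for Llgl2. The other 23 genes kept their sign with any 1 tumor left out, but 19 of these moved by over 1.5 times, all except Cdh3, Ctnnd1, Jup and Ppl.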
